A study of Mus musculus with 10 samples.

Results

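Young tendon fibroblasts were taken from single-cell RNA sequencing of the mouse supraspinatus enthesis, where this shoulder tendon joins bone. They were cells of the droplet libraries of postnatal days 11 and 18 (P11 and P18) that passed a filter of 500 or more genes with a UMI and 10% or fewer mitochondrial counts. Each also had at least 3 unique molecular identifiers (UMIs, which count RNA molecules) of Tnmd. None had a UMI of the leukocyte gene Ptprc, the endothelial gene Cdh5, the cartilage gene Matn1 or the bone sialoprotein gene Ibsp. The cells were thus chosen by their own measured UMIs of Tnmd and of the 4 excluded genes. This rule gave 1375 of the 8348 cells kept at the 2 ages, which were 1107 of 2952 cells at P11 (37.5%, exact 95% interval 35.8 to 39.3). At P18 they were 268 of 5396 cells (4.97%, interval 4.40 to 5.58). These are shares of all kept cells, leukocytes included. In the P56 library the same rule found 947 of 5131 cells, which serve for comparison. All 3 libraries together had 13479 kept cells.

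Wild-type C57BL/6 mice gave the droplet libraries, 1 at each of P11, P18 and P56. Whole entheses of several mice were pooled and red cells were lysed. By the description, the sorted cells lacked both Cd45 (a leukocyte protein) and staining by DAPI, which enters dead cells. Cells with leukocyte transcripts were still present, as given below. A second assay used 7 plates of 96 wells at P7, P14, P21, P28 and P42 and again at P11 and P18, from pooled entheses of Gli1CreERT;Ai14 mice given tamoxifen at P5 and P7. In these animals Cre driven by Gli1, a Hedgehog target gene, switches on a red reporter in Gli1-expressing cells and their descendants. It is unclear from the description of the plate sort if red or non-red cells were collected, and P14 is not among the ages named there. Each age was 1 library in each assay, so droplet ages have no replicate and no test, and their intervals cover counting error only.

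Tendon fibroblasts (tenocytes) lay down the collagen I fibrils that carry load from muscle to bone. Scleraxis (Scx) is the transcription factor that marks the tendon lineage, and tenomodulin (Tnmd) is a membrane protein of maturing tenocytes that depends on it. Small leucine-rich proteoglycans such as fibromodulin (Fmod) and keratocan (Kera) bind collagen and set how fibrils grow, collagens V and XI start them, collagens XII and XIV coat them, and lysyl oxidase cross-links them. In the weeks after birth the tendon changes from a cell-rich tissue to a matrix-rich one, and its end at the bone becomes fibrocartilage.

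Scleraxis and related factors with a basic helix-loop-helix domain bind the E-box, CANNTG, so the sequence before the start of the gene is shown for the gene that chose the cells and for a pair of genes that were among the most restricted to them. The sequences are from RefSeq (GRCm38.p6), 5′ to 3′ on the strand of the gene, with every E-box in capitals. They lie at chrX:133850758-133850979 (plus strand) for Tnmd, chr4:148500463-148500712 (minus strand) for Angptl7, which encodes a secreted angiopoietin-like protein, and chr16:78930698-78930947 (plus strand) for Chodl, which encodes the membrane lectin chondrolectin.
Tnmd: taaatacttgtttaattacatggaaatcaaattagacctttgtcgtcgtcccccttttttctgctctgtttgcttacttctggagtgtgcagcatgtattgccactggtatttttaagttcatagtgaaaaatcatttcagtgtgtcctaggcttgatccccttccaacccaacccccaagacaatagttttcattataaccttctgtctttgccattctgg
Angptl7: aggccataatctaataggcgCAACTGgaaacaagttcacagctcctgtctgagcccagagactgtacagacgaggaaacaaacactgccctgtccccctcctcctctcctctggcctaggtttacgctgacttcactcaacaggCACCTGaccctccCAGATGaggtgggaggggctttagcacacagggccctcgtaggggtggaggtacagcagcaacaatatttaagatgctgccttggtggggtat
Chodl: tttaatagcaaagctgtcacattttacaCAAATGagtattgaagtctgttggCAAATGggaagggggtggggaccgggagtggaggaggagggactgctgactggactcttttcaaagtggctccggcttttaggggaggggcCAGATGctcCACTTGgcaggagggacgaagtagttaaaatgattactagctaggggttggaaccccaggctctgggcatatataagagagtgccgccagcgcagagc
The Tnmd window of 222 bases held 0 E-boxes, the Angptl7 window 3 and the Chodl window 4. The letters read the same on both strands, and windows of 250 bases are rich in them. Of 32851 RefSeq promoters, 66.2% held at least 1, 12.2% at least 3 and 3.84% at least 4. Of 16 leading genes looked up, 11 had an entry and 8 of these held at least 1 E-box. Angptl7 and Chodl did not rank first among the leading genes, and their E-box counts do not stand for the rest. A match describes letters and not binding.

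Tnmd, which lies on chromosome X at 133850980 to 133865577 (GRCm38, plus strand), had a median of 58 UMIs per cell at P11 (quartiles 20 and 90), 15 at P18 (8 and 24) and 6 at P56 (4 and 10). The cells at P11 were also sequenced more deeply, with a median of 14300 UMIs against 10460 at P18 and 6366 at P56. Per 10000 UMIs of the cell, the median of Tnmd was 38.4 at P11 and 13.4 at P18. Tnmd chose the cells, so these values are a description, and the lower Tnmd at P18 remained after scaling for depth. Around the threshold the cells changed by degrees. At P11, 65 cells with 2 Tnmd UMIs and 44 cells with 3 held 109 and 155 CPM of Kera (counts scaled to a common total per group of cells), against 2681 CPM in 749 cells with 30 or more. Fmod was 87.3, 175 and 6904 CPM in the same groups, and Cd34, a gene of loose connective-tissue fibroblasts, was 892, 539 and 40.0 CPM. At P18, the 17 cells with 2 UMIs and the 12 with 3 held 62.3 and 159 CPM of Scx. The cells just inside the threshold at P11 were thus low in the other tendon genes.

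Tnmd UMIs were rare in leukocytes of the same libraries. Cells with at least 2 Ptprc UMIs were 309 of 2952 kept cells at P11 and 1593 of 5396 at P18. The share of fibroblasts among kept cells thus depends also on how many leukocytes a library held. Among cells with at least 2 Ptprc UMIs, 20 of 309 at P11 (6.47%) and 17 of 1593 at P18 (1.07%) had any Tnmd UMI, and 2.59% and 0.628% had 3 or more, at median depths of 12227 and 7350 UMIs. Libraries shared 4 to 9 cell barcodes by pair, and 0 among the fibroblasts. The exclusion genes took out 104 cells at P11 and 167 at P18 for Ibsp, 29 and 4 for Matn1, 20 and 16 for Ptprc, and 8 and 0 for Cdh5. The cells left out for Ibsp at P18 held 714 CPM of Tnmd, 28920 CPM of the cartilage collagen Col2a1, 8977 CPM of the bone matrix gene Spp1 and 46760 CPM of Col1a1, where the fibroblasts held 157 CPM of Col2a1 and 91.3 CPM of Spp1. Those left out for Ibsp at P11 held 1587 CPM of Tnmd, 50900 CPM of Col2a1, 3456 CPM of Spp1 and 59200 CPM of Col1a1. At both ages the exclusion therefore removed cells whose summed counts held tendon, cartilage and mineral genes together. Of the cells left out for Ibsp, 23.1% at P11 and 13.8% at P18 had a single Ibsp UMI. With these cells kept, Col11a1, Col11a2, Cyr61 (-0.83 on the log2 scale, P18 over P11), Fbln2 (0.87) and Igfbp6 (0.87), which are described below, were within 2-fold between the ages, Mest differed by -1.03, and Egr2 and Col2a1 turned direction.

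The label was checked against marker lists. The 5 tendon markers summed to 14730 CPM at P11 and 9539 CPM at P18 in the fibroblasts. They summed to 1056 and 1436 CPM in other stromal cells, which are 865 and 899 cells with no UMI of Tnmd, Ptprc or Cdh5 and at least 1% of counts from 9 broad stromal genes. Cartilage markers summed to 1664 and 3350 CPM, against 27430 and 56320 CPM in other stromal cells, with Matn1 at 0 by the rule, and Chad made up 694 and 2768 CPM of the sums in the fibroblasts. Mineralising-cell markers summed to 48.8 and 103 CPM, against 756 and 5547 CPM, with Ibsp at 0 by the rule, Col10a1 at 0 at P11 and Sp7 at 0 at P18. Other stromal cells could hold Matn1 and Ibsp. The lower cartilage and mineral sums of the fibroblasts were thus in part built in by the rule, also for the other genes of these lists. Markers of the endothelium (2.17 and 2.05 CPM), muscle (6.76 and 3.42 CPM) and Schwann cells (9.18 and 10.6 CPM) were low. Markers of loose-tissue fibroblasts summed to 747 and 1146 CPM (3028 and 792 CPM in other stromal cells). All 6 of these were at least 2-fold lower in the fibroblasts at P11, while at P18 2 were higher and 1 was lower. Markers of joint lining, which include Prg4, summed to 613 and 2330 CPM (2393 and 5093 CPM). By gene, 0 of 5 lining markers tested at P11 were at least 2-fold higher in the fibroblasts and 4 were lower. At P18, 3 of 4 tested were at least 2-fold higher in the fibroblasts and 1 was lower, so the sum there hides the direction of most of them. Mural markers were at 260 and 112 CPM, against 410 and 12.1 CPM in other stromal cells, so at P18 their sum was higher in the fibroblasts. That sum was nearly all 1 gene, at 111 CPM, and 3 of the 6 mural markers were at 0 there. Red-cell markers were at 10.6 and 41.7 CPM, against 11.4 and 46.2 CPM, and markers of the muscle junction at 32.2 and 3.76 CPM, against 40.8 and 7.45 CPM. Immune markers were at 26.99 CPM at P11 and 1487 CPM at P18, beside 18.2 and 584 CPM in other stromal cells. Tendon markers were thus high at both ages also apart from Tnmd, which chose the cells.

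Scx, the lineage factor on chromosome 15 at 76457452 to 76459458, had 371 CPM in the P11 cells (exact 95% counting interval 362 to 380). It had 315.5 CPM in those of P18 (295 to 337), and 265 CPM in those of P56 (254 to 277). Other stromal cells had 7.58 and 6.19 CPM at P11 and P18. Scx lies inside Bop1 on the opposite strand, so reads of either could be shared if strand was not used. After thinning each cell to 5000 UMIs, which left out 44 shallower fibroblasts at P11 and 10 at P18, 61.2% of 1063 fibroblasts at P11 and 62.8% of 258 at P18 had a Scx UMI, against 3.85% and 3.41% of other stromal cells. Unthinned, the shares in fibroblasts were 77.7% and 77.6%. The share of Scx-positive fibroblasts was thus near the same at both ages, and far above other stromal cells. Mkx, which encodes the tendon homeobox factor Mohawk, had a UMI in 23.2% and 20.9% of fibroblasts and in 1.74% and 3.16% of other stromal cells (48.5% and 36.9% of fibroblasts unthinned).

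Of 7856 genes measured against other stromal cells, 118 were at least 2-fold higher in the fibroblasts at both P11 and P18 (1.5% of genes) and 537 were at least 2-fold lower (6.84%). Since Tnmd and the other rule genes separate these groups, the values describe the cells and carry no test. Kera was at 2225 CPM at P11 and 1420 CPM at P18 in fibroblasts, against 34.1 and 3.97 CPM in other stromal cells. Thbs4, which encodes thrombospondin 4, an adhesive matrix protein of tendon and muscle, was at 2496 and 2429 CPM, against 217 and 96.7 CPM. Fmod was at 5615 and 3686 CPM, against 797 and 1329 CPM. Kera and Thbs4 stood further above other stromal cells at P18 than at P11, and Fmod less far.

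Among the most restricted genes outside the markers were several that are not part of the fibril. Uts2r, the receptor of the vasoactive peptide urotensin, was at 50.7 and 85.5 CPM and rested on 3 and 8 UMIs in other stromal cells. Angptl7 was at 157 and 588 CPM, against 3.39 and 5.13 CPM. Barx2, a homeobox factor, was at 85.5 and 119 CPM, against 3.63 and 1.94 CPM. All of these were higher at P18 than at P11 in the fibroblasts. The pentraxin gene Ptx4 (105 and 59.1 CPM), Sema3b (253 and 97.8 CPM), a secreted semaphorin, and Chodl (177 and 88.2 CPM) were also restricted, and were lower at P18. Cpxm2, of the carboxypeptidase family, was at 701 and 547 CPM, against 38.3 and 43.2 CPM. At the other end, the osteocalcin gene Bglap was lower by -8.52 and -8.01 on the log2 scale and Cnmd, the cartilage relative of Tnmd, by -6.59 and -9.01. With other stromal cells also required to lack Matn1 and Ibsp, 107 genes were higher and 315 were lower.

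**Figure D1:**
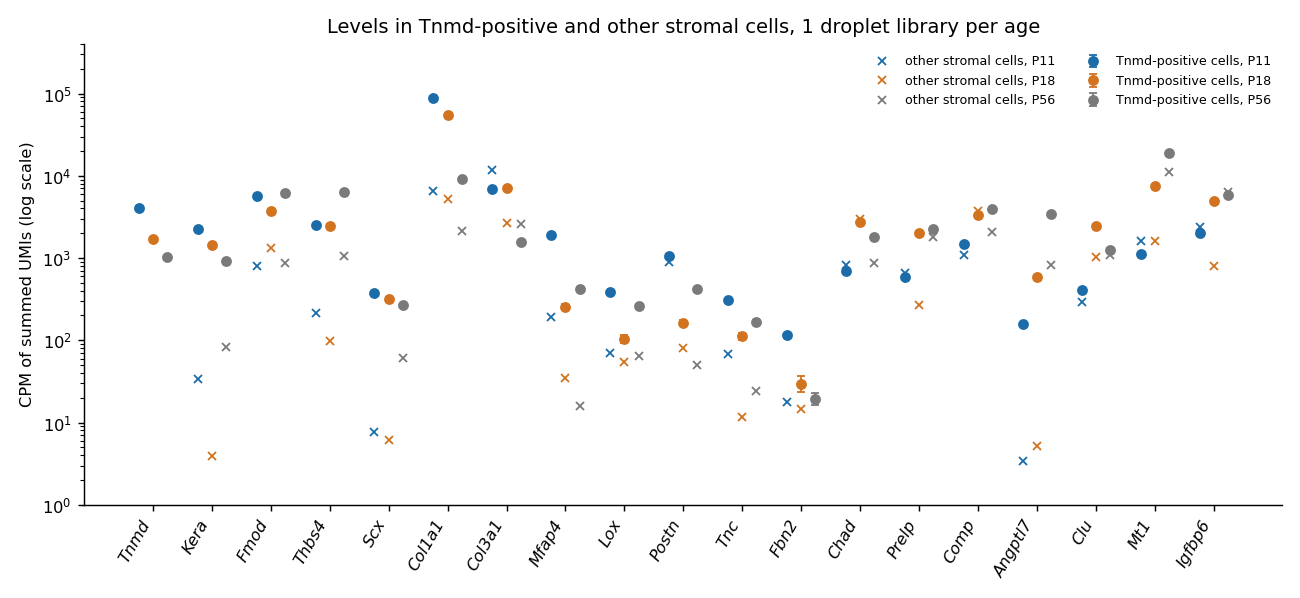
CPM, the scaled counts (log axis), of named genes in the summed Tnmd-positive fibroblasts of the P11, P18 and P56 droplet libraries, with exact Poisson 95% intervals, and of other stromal cells (crosses). Each point is 1 library. In the fibroblasts Postn, Mfap4 and Lox are lower at P18 than at P11 while Chad, Prelp, Angptl7 and Mt1 are higher.

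The comparison of P18 with P11 covered 8997 genes with at least 100 UMIs over both libraries. At P18, 297 were at least 2-fold higher (3.3% of genes) and 437 at least 2-fold lower (4.86%), and the median of all genes was 0.10 on the log2 scale. The fibroblasts summed to 16563249 UMIs at P11 and 2925777 at P18. A gene high at P11 alone thus met the minimum at a lower CPM than one high at P18 alone. The balance of higher and lower genes therefore depends in part on this minimum. Periostin, lysyl oxidase, elastin and the collagen XII and XIV genes were among the lower ones, and the genes of chondroadherin, Prelp, Angptl7 and the metallothioneins among the higher ones, with values below. Higher genes were 40.5% of these calls with total-count scaling, 24.9% with TMM scaling and 25.4% with median-of-ratios scaling, which put the median of all genes at -0.04 and -0.03. Of the 297 higher genes, 89 (29.97%) were also at least 2-fold higher in other stromal cells at P18, and of 436 lower genes other than Tnmd, 227 (52.1%) were also lower there. Other stromal cells differed in make-up between the ages, so these shares and their ratios below do not compare like cells. Thinned to 5000 UMIs, 38.6% of them had a Col2a1 UMI at P11 and 83.7% at P18, and 60.7% and 15.6% had a Cd34 UMI.

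The libraries differed in more than age. Xist, expressed from the inactive X of females, was found in 73.9% of the fibroblasts at P11, 57.5% at P18 and 0.21% at P56, and transcripts of Y genes in 17.3%, 28.0% and 55.2%. Mitochondrial counts were 5.64% at P11, 2.43% at P18 and 4.80% at P56 (medians). Sex, depth and age cannot be told apart in the pooled libraries. Mfap4, Postn, Chad and Mt1 are therefore given below also within cells with Xist, cells with Y transcripts and no Xist, and a fixed range of Tnmd.

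Of the 5 tendon markers, Tnmd, which chose the cells, was lower at P18 by -1.25 on the log2 scale, and the others differed by less than 2-fold. Kera was lower by -0.65 (counting interval -0.69 to -0.60) and Fmod by -0.61 (-0.64 to -0.58) on the log2 scale. Scx differed by -0.23 (-0.33 to -0.13) and Thbs4 by -0.04 (-0.08 to -0.00). Among cells with 6 to 15 Tnmd UMIs after thinning to 5000 (238 at P11 and 120 at P18), Kera differed by -0.02, Fmod by -0.20, Scx by 0.19 and Thbs4 by 0.31 when all their UMIs were summed, beside -0.39 for Tnmd. Among cells with 16 or more (631 and 33), they differed by -0.17, -0.11, -0.10 and 0.38 in the same order. At like Tnmd the marker genes were therefore closer between ages, apart from Thbs4, and Scx turned sign in the lower class alone. Of 17 tendon transcription factor genes tested, 0 were 2-fold higher and 2 were lower, with a median of -0.24. Meox1, a mesenchymal homeobox factor, was at 25.4 CPM at P11 and 2.39 CPM at P18, on 7 UMIs. Egr2, a zinc-finger factor of collagen-producing tendon cells, was lower by -1.30, but higher by 0.28 when cells with Ibsp were kept.

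Collagen genes were lower at P18 as a family. Of 10 fibrillar collagen genes tested, 0 were at least 2-fold higher and 4 lower, with a median of -0.78, and of 14 other collagen genes 0 were higher and 6 lower, with a median of -0.92. Col1a1, the main chain of tendon fibrils, was at 86978 CPM at P11 and 55016 CPM at P18, a difference of -0.66. Col1a2 was at 66324 and 35585 CPM (-0.90). Col3a1, abundant in young and repairing tendon, was at 6826 and 7044 CPM (0.05). The main fibril chains thus stayed within 2-fold in this scaling, as did 6 of the 10 genes. Col11a1 was at 1609 and 611 CPM (-1.40, interval -1.47 to -1.33) and Col11a2 at 839 and 258 CPM (-1.70, -1.81 to -1.60); with cells carrying Ibsp kept they were lower by -0.76 and -0.82. In other stromal cells Col11a2 was higher at P18 by 1.31. Col12a1, which coats fibrils, was at 688 and 262 CPM (-1.40, -1.50 to -1.29), Col14a1 at 389 and 134 CPM (-1.53) and Col6a3, of pericellular microfibrils, at 1644 and 690 CPM (-1.25). Col22a1, known from the junction of muscle and tendon, was at 29.6 CPM at P11 and rested on 10 UMIs at P18. Col2a1 was at 515 and 157 CPM, but 1.26 higher at P18 on the log2 scale where cells with Ibsp were kept.

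Genes of collagen folding, processing and cross-linking were mixed, with 2 of 30 tested at least 2-fold higher, 5 lower and a median of -0.44. Over P11, P18 and P56, Lox, the lysyl oxidase that cross-links collagen and elastin, was at 390, 105 and 260 CPM, and its P18 to P11 difference was -1.89 (-2.06 to -1.73). Loxl1, the relative needed for elastic fibres, was at 80.7, 29.1 and 68.5 CPM. Both were lowest at P18. Pcolce2, an enhancer of procollagen processing, went the other way at 243, 745 and 615 CPM. Of 26 genes of the general secretory machinery, 1 was higher and 0 lower, with a median of 0.02.

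Elastic-fibre genes had 2 of 16 tested at least 2-fold higher, 5 lower and a median of -0.76. Mfap4, a microfibril-associated glycoprotein, was at 1882, 256 and 424 CPM at P11, P18 and P56 (P18 over P11 -2.88, -2.98 to -2.77). The elastin gene Eln was at 72.3, 9.57 and 10.0 CPM (-2.92, -3.51 to -2.38), and Fbn2, the fibrillin of developing tissue, at 114, 29.4 and 19.5 CPM (-1.96, -2.29 to -1.65). Fbln2, encoding fibulin 2, was higher at P18, at 156, 391 and 481 CPM. Mfap4 was also lower in other stromal cells at P18, by -2.48. Among cells with 6 to 15 Tnmd UMIs, Mfap4 was lower by -2.17 and Eln by -1.55.

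Matricellular genes, whose products modulate how cells meet the matrix, moved in both directions, with 8 of 26 tested at least 2-fold higher, 10 lower and a median of -0.36. Postn (periostin) was at 1057, 163 and 425 CPM at the 3 ages (P18 over P11 -2.70, -2.83 to -2.57), and Tnc (tenascin C) at 308, 111 and 167 CPM (-1.47, -1.63 to -1.31). Thbs2 was at 595, 235 and 335 CPM and Cyr61, of the CCN family, at 335, 99.8 and 232 CPM. All 4 were lowest at P18. In contrast Ctgf, another CCN gene, was at 666, 1811 and 1830 CPM. Comp, the cartilage oligomeric matrix protein abundant in loaded tendon, was at 1474, 3365 and 3952 CPM (1.19, 1.16 to 1.23). Prg4, the lubricant lubricin, was at 510, 2049 and 4601 CPM (2.01). In other stromal cells, whose make-up differed between the ages, Cyr61 differed by 0.97 and Postn by -3.51. Postn was thus lower at P18 in both groups of cells, and Cyr61 in the fibroblasts only.

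Of 12 small leucine-rich proteoglycan genes tested, 2 were at least 2-fold higher and 0 lower, with a median of -0.30. Chad (chondroadherin), which binds collagen and integrins at the cell surface, was at 694, 2768 and 1797 CPM at the 3 ages (P18 over P11 1.996, 1.96 to 2.04). Prelp, which anchors heparan sulphate to collagen, was at 585, 1991 and 2248 CPM (1.77, 1.72 to 1.81). Chad was also higher in other stromal cells at P18, by 1.87, whereas Prelp was lower there, by -1.30. Per cell, the median of Chad per 10000 UMIs was 0 at P11 and 16.4 at P18, and that of Prelp 3.49 and 16.8. Both genes were thus higher across the cells at P18 and not in a few.

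Other secreted genes with higher levels at P18 included Angptl7 at 157, 588 and 3440 CPM over the 3 ages (P18 over P11 1.91). Clu (clusterin), an extracellular chaperone, was at 411, 2455 and 1234 CPM (2.58). Slurp1, a small secreted Ly6-family protein, was at 46.3, 876 and 106 CPM (4.24, 4.13 to 4.36). Slurp1 was the largest of these differences, was highest at P18 alone, and was found in 36.2% of the cells there with 6.28% of its UMIs in 1 cell. Mgp, the inhibitor of mineralisation, was at 1757, 3824 and 10517 CPM, and Timp3, a matrix-bound protease inhibitor, at 246, 546 and 615 CPM. Timp3 was the 1 gene at least 2-fold higher among 18 matrix proteases and inhibitors tested, 6 were lower, and the median was -0.61. The protease gene Adamts1 was at 120, 23.6 and 138 CPM.

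The metallothionein genes, which encode small metal-binding proteins, were higher at P18 and higher again at P56. Mt1 was at 1118, 7567 and 18836 CPM (P18 over P11 2.76, 2.73 to 2.79) and Mt2 at 384, 2330 and 9563 CPM (2.60). In other stromal cells Mt1 differed by -0.01 and Mt2 by -0.35 between P11 and P18. The metallothionein levels of other stromal cells were thus close at these ages, though the make-up of those cells differed. With 1 library per age the difference between the 2 kinds of cell has no test.

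The direction of these leading differences was the same within each subset of cells. Among cells with Xist, with or without Y transcripts (818 at P11 and 154 at P18), Mfap4 differed by -2.75, Postn by -2.87, Chad by 1.95 and Mt1 by 2.58. Among cells with Y transcripts and no Xist (176 and 70), the same genes differed by -2.89, -2.56, 2.18 and 3.37. Among cells with 6 to 15 Tnmd UMIs they differed by -2.17, -2.50, 1.69 and 2.67. Slurp1 ranged from 3.06 to 5.74, Prelp from 1.21 to 2.07 and Lox from -2.18 to -1.66 over all alternatives run.

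**Figure D2:**
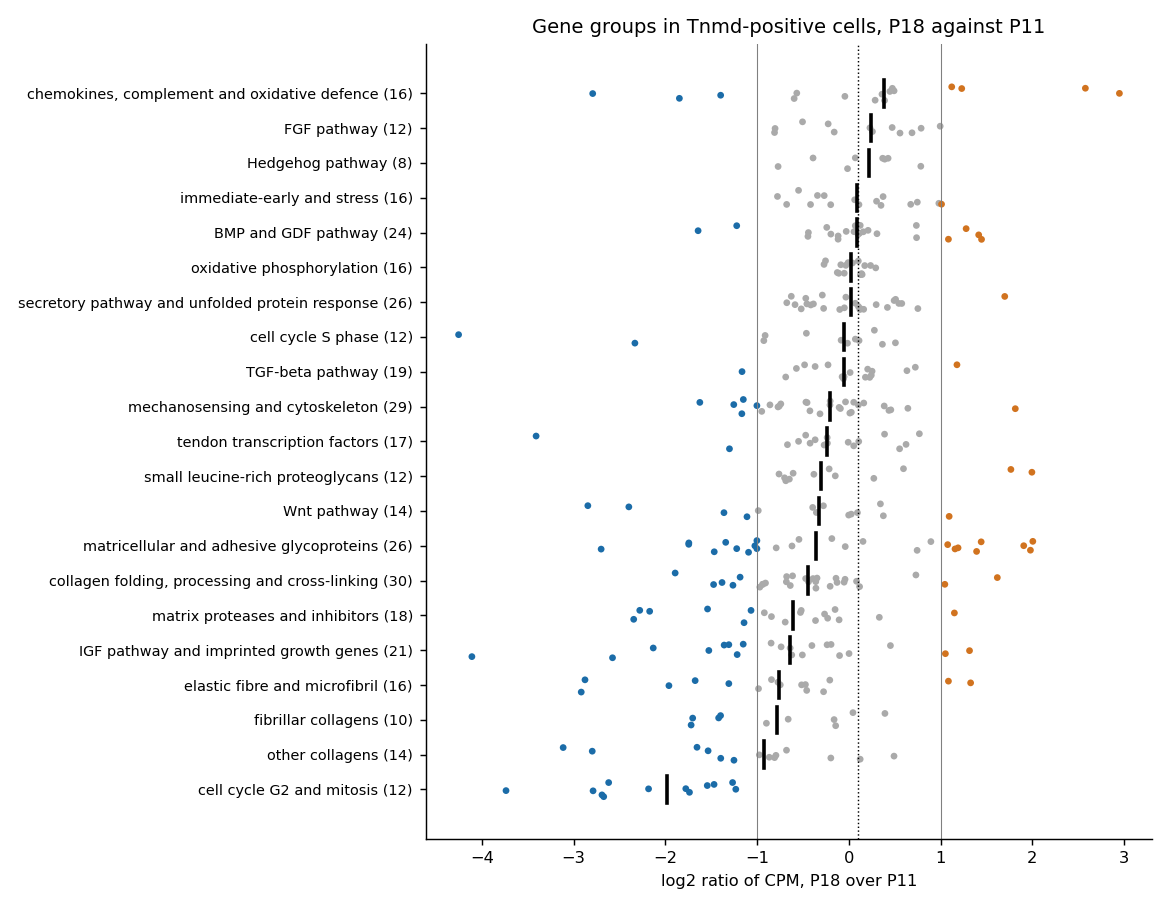
Log2 ratio of P18 to P11 in Tnmd-positive fibroblasts for every tested gene of each list, with the list median (thick bar), the median of all 8997 genes (dotted line, 0.10) and 2-fold marked by grey lines. The number of genes tested is in brackets, and genes past 2-fold are coloured. Collagen and G2/M-phase lists sit mostly below 0, and matricellular genes spread to both sides.

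The medians of the 5 signalling lists lay between -0.32 and 0.24. Of 19 TGF-beta genes tested, 1 was at least 2-fold higher, Skil (57.1 and 129 CPM), a repressor of Smad signalling, and 1 was lower, Mstn, with a median of -0.05. Mstn, which encodes myostatin, differed by -1.16, but by 0.78 among cells with 6 to 15 Tnmd UMIs. Of 24 BMP and GDF genes, 4 were higher and 2 lower, with a median of 0.09. Bmp2 was at 22.2 and 47.2 CPM. Gdf5 and Gdf10, higher by 1.42 and 1.28, were lower by -0.08 and -0.56 among cells with 6 to 15 Tnmd UMIs. Of 8 Hedgehog and 12 FGF genes, 0 passed 2-fold in either direction, with medians of 0.22 and 0.24. Gli1 itself had a UMI in 0.85% of fibroblasts at P11 and 2.33% at P18 after thinning, below the 4.34% and 5.60% of other stromal cells, and in 3.16% and 3.36% unthinned. Of 14 Wnt genes 1 was higher and 4 lower, with a median of -0.32. Of 29 genes of mechanosensing and the cytoskeleton 1 was higher and 5 lower (median -0.21), of 16 immediate-early and stress genes 1 was higher (median 0.09), and of 16 oxidative phosphorylation genes 0 passed (median 0.02).

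Growth genes of the insulin-like growth factor and imprinted group were mostly lower, with 2 of 21 tested at least 2-fold higher, 8 lower and a median of -0.64. Igfbp2 was at 35.4 CPM at P11 and rested on 6 UMIs at P18 (-4.11, -5.56 to -2.98). The imprinted genes Mest (95.9 and 21.9 CPM), Meg3 (2219 and 955 CPM) and H19 (190 and 31.8 CPM) were lower at P18. A single cell held 49.5% of the H19 UMIs at P18, and without the leading cell of each library H19 was lower by -3.51. It was lower by -5.45 in cells with Xist and by -1.82 in cells with Y transcripts and no Xist. Igfbp6, at 1991 and 4959 CPM, and Igfbp7, at 2853 and 5918 CPM, were higher. Under TMM scaling Igfbp7 was within 2-fold.

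G2/M-phase genes were lower at P18, and most S-phase genes were within 2-fold. All 12 G2/M-phase genes tested were at least 2-fold lower at P18, with a median of -1.98, while 2 of 12 S-phase genes were lower, with a median of -0.05. After thinning, at least 2 UMIs of the G2/M genes were held by 37 of 1063 fibroblasts at P11 (3.48%, 2.46 to 4.77) and 4 of 258 at P18 (1.55%, 0.42 to 3.92). In the P56 library 4 of 665 cells (0.60%) did. The intervals at P11 and P18 overlap. Unthinned, 77 of 1107 fibroblasts at P11 and 6 of 268 at P18 held at least 2 such UMIs. Without these cells the topoisomerase gene Top2a, lower by -1.27 in all cells, differed by 0.03, Mki67 by -0.04 and Cdk1 by -0.83. The cells left out were chosen by G2/M genes, so smaller differences in cell-cycle genes were built into this comparison.

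Some of the largest differences did not belong to the fibroblasts as a whole. The neutrophil genes S100a8 (1.39 CPM at P11 and 700 CPM at P18), S100a9, Ngp, Retnlg, Camp and Lcn2 were among the 12 largest by ratio. At P18 1 cell held 72.3% of the S100a8 UMIs. After thinning, 22.1% of fibroblasts had an S100a8 UMI, beside a like share of 24.2% of other stromal cells at the same depth (38.4% of fibroblasts unthinned). The source of these UMIs was not tested. Msmp, at 126 CPM, had 98.9% of its UMIs in 1 cell. Leaving out the 2 fibroblasts at P18 with 10 or more neutrophil-gene UMIs gave 286 higher and 442 lower genes, and leaving out the leading cell of each gene gave 233 and 503. The chemokine genes Cxcl10 and Cxcl2 were high in some cells at P11 and nearly undetected at P18, where Cxcl10 had 1 UMI in all.

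**Figure D3:**
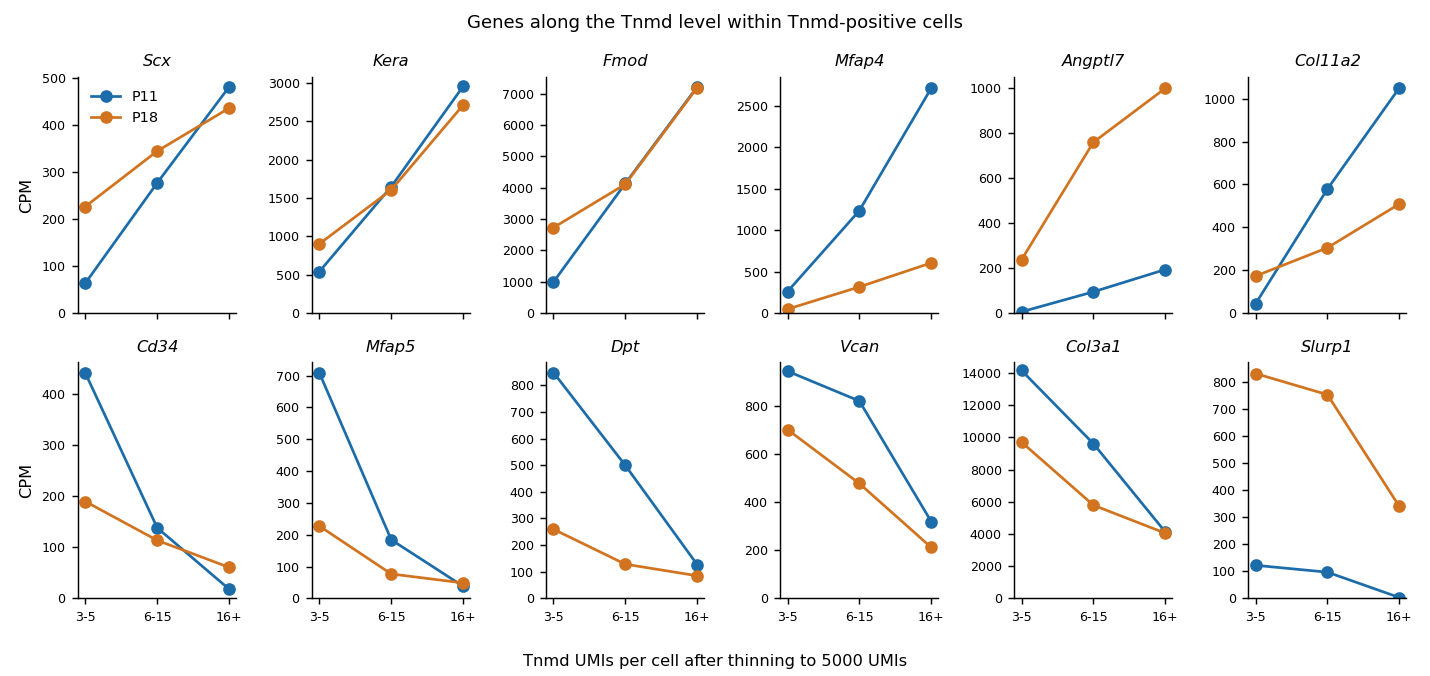
CPM in fibroblasts of P11 and P18 thinned to 5000 UMIs and split by their Tnmd UMIs (3 to 5, 6 to 15, 16 or more), on linear axes from 0. Each point is the sum over the cells of 1 class in 1 library. Mfap4, Kera and Fmod are higher with more Tnmd at both ages, and Cd34, Mfap5 and Dpt are lower.

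The cells were not uniform at either age. Thinned to 5000 UMIs, 100 cells at P11 had 3 to 5 Tnmd UMIs, 238 had 6 to 15 and 631 had 16 or more, and at P18 these classes held 74, 120 and 33 cells. Of 1364 genes with enough counts, 16 were steadily higher over the 3 classes at both ages with at least 2-fold between the ends (1.17% of genes), and 21 were steadily lower (1.54%). Tnmd set the classes, so this describes the cells. Mfap4 was at 260, 1236 and 2712 CPM from low to high Tnmd at P11 and at 48.7, 317 and 606 CPM at P18. C1qtnf3, which encodes a secreted C1q-family protein, was at 104, 428 and 749 CPM at P11 and 18.9, 135 and 321 CPM at P18. Kera was at 542, 1648 and 2952 CPM and at 903, 1605 and 2709 CPM. Kera was thus nearly the same between ages within the upper classes, while Mfap4 and C1qtnf3 were lower at P18 in every class. Angptl7 was higher at P18 in every class, at 94.96 and 194 CPM in the upper classes at P11 and 760 and 1000 CPM at P18.

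Genes that were lower with more Tnmd included several of loose connective tissue. Cd34 was at 440, 138 and 18.1 CPM from low to high Tnmd at P11 and 189, 113 and 60.6 CPM at P18. Mfap5, a microfibril protein of such fibroblasts, was at 708, 184 and 38.03 CPM and at 227, 76.7 and 48.5 CPM, and Dpt (dermatopontin) at 848, 499 and 127 CPM and at 260, 128 and 84.9 CPM. Col3a1 was at 14150, 9604 and 4129 CPM and at 9700, 5787 and 4048 CPM. The span between the classes was wider at P11 for these genes. Slurp1 followed the same order at P18, at 830, 752 and 339 CPM.

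More genes differed between P18 and P56 than between P11 and P18. Of 7356 genes, 692 were at least 2-fold higher at P56 than at P18 (9.41%) and 333 lower (4.53%), with a median of -0.01 over all genes. Col1a1 was at 9054 CPM at P56 (P56 over P18 -2.60), Col1a2 at 8824 CPM (-2.01) and Col3a1 at 1574 CPM (-2.16), and 7 of 10 fibrillar collagen genes were at least 2-fold lower. Thbs4 was at 6371 CPM (1.39), Fmod at 6245 CPM (0.76) and Kera at 928 CPM (-0.61). Col5a3 was the 1 fibrillar gene at least 2-fold higher (2.04), and of 14 other collagen genes 5 were higher and 2 lower. The adult cells thus held less mRNA of the main fibril collagens and more of Thbs4. Dcn (decorin) was at 27766 CPM against 10138 CPM, Cilp, a cartilage intermediate-layer protein, at 1697 against 166 CPM and Gsn (gelsolin) at 11361 against 2024 CPM. Genes that were lower at P18 than at P11 did not all go further in the same direction. Lox, Postn, Mfap4, Meox1 (61.2 CPM) and Col22a1 (168 CPM) were higher again at P56, but Mfap4, higher by 0.72, was lower by -0.24 where cells needed 1000 genes and at most 5% mitochondrial counts. Inflammatory genes were higher at P56, with Ccl2 at 992 against 6.49 CPM and C3 at 364 against 5.13 CPM, and 13 of 18 chemokine and complement genes were at least 2-fold higher. Ccl2 was also higher at P56 in other stromal cells, by 5.80 on the log2 scale, so its difference was not limited to the fibroblasts.

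**Figure D4:**
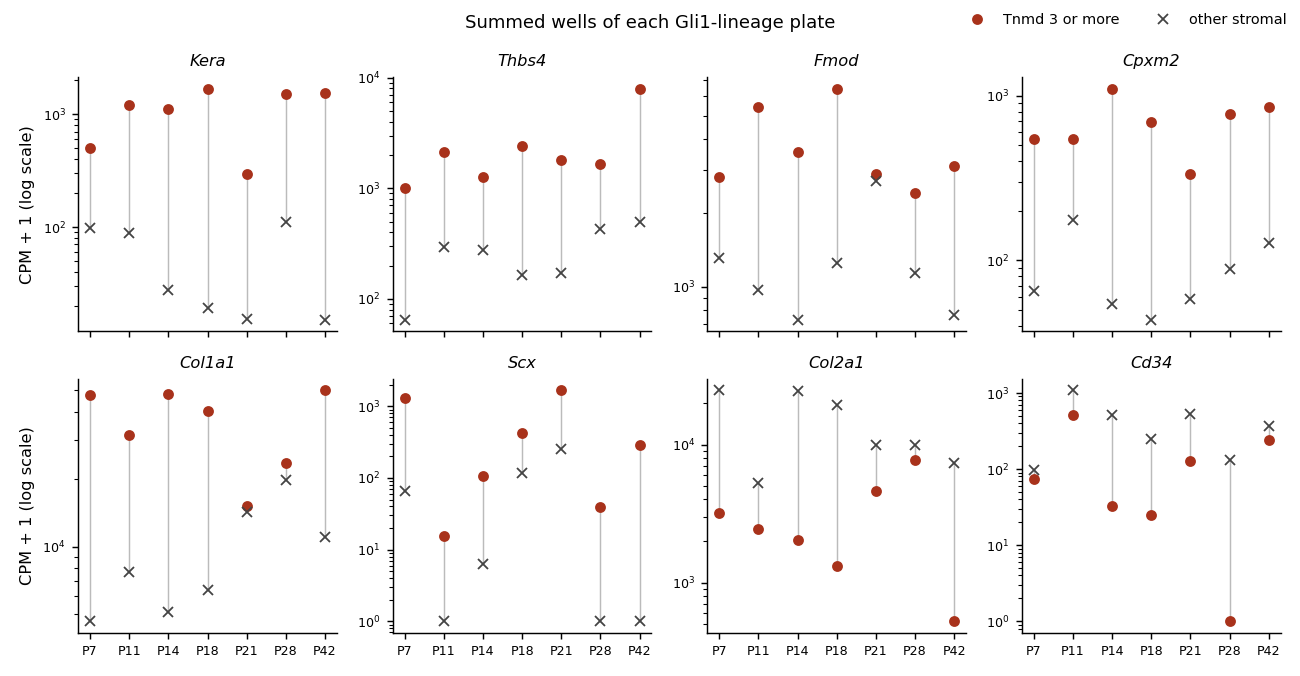
CPM + 1 of named genes in Tnmd-positive wells and in other stromal wells of each of the 7 plates (P7 to P42), log axes, with the points of 1 plate joined by a line. Kera, Thbs4, Cpxm2 and Fmod are higher in the Tnmd-positive wells of every plate.

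The plates were not among the libraries that gave the fibroblasts, but the same rule sorted their wells. The test therefore compares wells that the rule separates. Other stromal wells could hold Matn1 and Ibsp, which Tnmd-positive wells lacked, so lower cartilage and mineral genes were in part built in. The same rule on the plates gave 121 Tnmd-positive wells of 647 kept, 51, 18, 19, 10, 8, 9 and 6 from P7 to P42, and 235 other stromal wells. Counts were summed per plate and kind of well, and compared with the plate as a block by edgeR's quasi-likelihood test with Benjamini-Hochberg adjustment. Of 1050 genes tested, 31 were higher in Tnmd-positive wells (2.95%) and 27 were lower (2.57%), with Tnmd and the exclusion genes left out. The count filter can be passed by 1 kind of well alone, and with no filter 16 were higher and 46 lower. Each plate is 1 age, and Xist was found in 84.3% of Tnmd-positive wells at P7, 89.5% at P14 and 100% at P21 and in 0% at P11, P18, P28 and P42, which the block takes up. Without the block 10 genes were higher and 6 lower. Without the P14 plate 13 were higher and 15 lower, and without the P18 plate 15 were higher.

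Kera was at 503, 1208, 1104, 1683, 292, 1514 and 1526 CPM from P7 to P42 in Tnmd-positive wells and at 96.1, 87.7, 26.7, 18.3, 14.3, 109 and 14.1 CPM in other stromal wells. Other stromal wells held 2 to 15 Kera counts per plate, so Kera met the filter mostly through the Tnmd-positive wells. The groups did not overlap, and the difference was 4.87 on the log2 scale (SE 0.42, adjusted p = 9.25e-07 by edgeR). Thbs4 was at 1010, 2129, 1261, 2418, 1795, 1669 and 7965 CPM, against 64.0, 292, 278, 164, 171, 428 and 494 CPM (3.21, SE 0.29, edgeR adjusted p = 9.74e-07). Cpxm2 was at 334 to 1104 CPM against 42.6 to 175 CPM (3.26, SE 0.33, edgeR adjusted p = 4.55e-06), again with no overlap. The other stromal wells of a plate summed to 31235 to 187336 counts, so Cpxm2 also rested on few counts there. The limit of the count filter holds for it too. Fmod was at 2407 to 6447 CPM against 731 to 2712 CPM and higher in 7 of 7 plates (1.76, SE 0.28, edgeR adjusted p = 0.000845). Scx did not reach the count filter. It was at 1296, 14.4, 105, 427, 1669, 38.8 and 286 CPM in Tnmd-positive wells and at 64.0, 0, 5.34, 116, 250, 0 and 0 CPM in the others, which is higher in every plate without a test. At P11 and P28 the Tnmd-positive wells summed to 69520 and 25761 counts, so 14.4 and 38.8 CPM are the level of a single count. The direction in these plates is therefore not resolved.

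Thbs4 passed under all 18 alternatives, Cpxm2 under the 17 and Kera under the 16 that tested it, the fit with no count filter included. Cpxm2 and Kera fell below the filter where the other wells also lacked Matn1 and Ibsp, and Kera also without the P28 plate.

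The matrix genes that were high in the droplet fibroblasts were in part higher on the plates too. Col1a1 was at 15191 to 50031 CPM against 4642 to 19907 CPM, higher in 7 of 7 plates (2.12, SE 0.39, edgeR adjusted p = 0.0027), and Col12a1 was higher in 6 of 7 (2.19, edgeR adjusted p = 0.00137). Postn (1.75, edgeR adjusted p = 0.0168), Tnc (1.68, 0.0318) and Prelp (1.11, 0.0102) also passed, and Mfap4 did not (1.13, edgeR adjusted p = 0.144). Of 16 matricellular genes 5 were higher and 0 lower, and of 11 small leucine-rich proteoglycan genes 4 were higher and 1, Omd, was lower. Of 16 genes of collagen folding and 18 of the secretory machinery, 0 passed.

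Genes lower in the Tnmd-positive wells included those of cartilage and of loose fibroblasts. Of 9 cartilage markers tested 6 were lower and 0 higher, among them Col2a1 (-2.25, edgeR adjusted p = 0.00137) and Cnmd (-2.30, 0.00302). The rule barred Matn1 and Ibsp from the Tnmd-positive wells but not from the others, so these cartilage p-values are not independent of the rule. Apoe (-1.78, edgeR adjusted p = 0.000129), a lipid carrier, and Gsn (-1.55, 0.000238) were lower in 7 of 7 plates. Cd34 (-1.71, edgeR adjusted p = 0.0155), Ly6a (-1.80, 0.00664) and Mfap5 (-1.88, 0.013) were lower as well. In the droplets thinned to 5000 UMIs, Cd34 and Ly6a had this direction at P11 only. Cd34 had a UMI in 21.17% of fibroblasts and 60.67% of other stromal cells at P11, and in 31.01% and 15.57% at P18. For Ly6a the shares were 25.4% and 61.41% at P11, and 42.25% and 17.15% at P18. Where the other wells were also required to lack Matn1 and Ibsp, Col2a1 differed by 0.01 and Col11a2 by 0.04, and Cnmd by -0.78, Snorc by -0.39 and Col9a1 by -0.26. Of the 118 genes higher in the droplet fibroblasts at both ages, 29 other than Tnmd could be tested on the plates. Of these, 20 were higher there and 0 lower, beside 2.95% higher among all 1050 genes tested. Of the 537 genes lower in the droplet fibroblasts, 69 other than the rule genes could be tested. Of these, 19 were lower and 0 higher, beside 2.57% lower among all genes tested. Because of the count filter, and because the same rule chose the cells and the wells, these counts are a description.

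Change with age along the Tnmd-positive wells was not resolved. A slope on log2 age over the 7 plates, with edgeR, called 0 of 526 genes in either direction (0%), and 64 genes were at an unadjusted p under 0.05. DESeq2 called 13 genes higher with age and 31 lower. The lowest adjusted p was shared by Mgp and Col14a1. For Mgp log2 CPM was higher by 1.26 with each doubling of age (SE 0.27, edgeR adjusted p = 0.199), with 1248, 4100, 3319 and 15214 CPM at P7, P11, P18 and P42. Col14a1 had -1.40 (SE 0.31, edgeR adjusted p = 0.199), with 1702, 547, 237 and 95.4 CPM at these ages. Mgp was thus lower at P18 than at P11 on the plates and higher in the droplets. At P18 and later each plate had 6 to 10 Tnmd-positive wells.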

How the data were processed

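The authors deposited whole-number counts, one for each gene in each cell barcode of a droplet library or well of a plate; 4 plates (P11, P21, P28 and P42) write the whole numbers with a decimal point. The build was mm10 per the submitters' processing notes, and the droplet matrices carry software version 3.1.0 (P11, P18) or 3.0.2 (P56) per the file headers. The aligner, and any collapse of plate counts by molecular identifier, are not given in the sources used here. Barcodes numbered 3263, 5588 and 5520 with 44104990, 53725468 and 40082499 counts at P11, P18 and P56, and plates held 240498 to 507431 counts.

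Counts were summed over the chosen cells of a library and given as CPM of that sum. Levels have exact Poisson intervals, log2 ratios exact conditional binomial intervals and shares Clopper-Pearson intervals, all at 95% and for counting error only. A count of 0 allows up to 3 counts. A gene was counted as different between droplet libraries at 2-fold or more with at least 100 UMIs over both. Plate sums with at least 10 counts in at least 7 of the 14 sums (contrast, 6 residual degrees of freedom) or in at least 4 plates (slope, 5) were tested with edgeR 4.0.16 (R 4.3.3, TMM scaling), with calls at an adjusted p of 0.05. Wells of 1 plate come from pooled animals, so p-values measure the spread between plates. On simulated counts the contrast recovered 79.5% of 200 genes set 2 apart on the log2 scale among 1051 genes, with 1 false call. The slope recovered 69.5% of 200 genes of slope 1.5 among 527, with 1 false call. Doublets were left in, and their removal was an alternative. Scripts used Python 3.11.15, numpy 2.4.6, pandas 2.3.3, scipy 1.17.1 and scanpy 1.11.5.

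The cells, gene lists and rules were chosen with earlier results of these data known. Named genes were the markers and rule genes, the 12 largest differences in each direction between ages, the 15 highest and 10 lowest against other stromal cells, the 10 lowest adjusted p in each direction on the plates, the 4 most abundant and all 2-fold members of each list, and the 8 largest steady gradients with Tnmd in each direction. C3, Cilp, Ccl2 and Dcn at P56 and the genes followed across subsets were picked among these after their values were seen.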

Additional observations from a re-analysis of the deposited data

How the results depend on the processing

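Over 36 other settings and 7 added after the data were seen, the 86 named genes gave 1548 values of P18 over P11, of which 8, of genes past 2-fold, turned direction. No named gene past 2-fold turned between P18 and P56 (770 values) or against other stromal cells (784 values). Of genes within 2-fold, Scx (to 0.19), Thbs4 (to 0.38) and Col3a1 (to -0.72) turned between P11 and P18, and Mfap4 (to -0.24), Comp (to -0.20) and Scx (to 0.23) between P18 and P56. Depth and the few cells at P18 limit low genes, and the cause of each move below was not tested unless fewer cells or genes entered.

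The share of cells that were fibroblasts at P11, P18 and P56 was 31.96%, 5.877% and 14.93% when cells needed 1000 genes and could have 5% mitochondrial counts at most, 43.6%, 5.819% and 32.84% with Tnmd at least 1, and 33.77%, 4.299% and 10.66% with Tnmd at least 6. After thinning to 5000 UMIs it was 6.788% at P18 and 15.66% at P56. It was 19.94% at P56 with up to 1 UMI of the excluded genes, and 40.48% at P11 and 7.913% at P18 with Ibsp not used (added). Between P11 and P18 the genes 2-fold higher and lower were 144 and 190 at the stricter cell filter, 185 and 227 after thinning, 129 and 165 with at least 400 UMIs, 529 and 846 with at least 30 UMIs, 136 and 183 in cells with Y transcripts and no Xist, and 126 and 178 in cells with 6 to 15 Tnmd UMIs (added). Higher genes were 196 with median-of-ratios and 193 with TMM scaling. Between P18 and P56, 400 were higher after thinning, and 294 and 125 with at least 400 UMIs, or 1158 and 673 with at least 30 UMIs, were higher and lower. Against other stromal cells the counts were 74 and 350 after thinning, 55 and 260 with at least 400 UMIs, 194 and 830 with at least 30 UMIs, 229 and 1575 against all other kept cells, and 315 lower where these also lacked Matn1 and Ibsp (added). Genes steadily higher over the Tnmd classes were 9 at 3000 UMIs and 31 unthinned, and 45 were steadily lower unthinned.

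On the plates the genes higher and lower in Tnmd-positive wells were 16 and 46 with no filter, 3 and 7 in the layout with decimals alone, and 4 and 4 with limma 3.58.1 on mean CPM. They were 20 higher with Tnmd at least 1, 63 lower against all other kept wells, and 11 lower where the other wells also lacked Matn1 and Ibsp. The plate was the block, and without this replicate block 10 were higher and 6 lower. Leaving out 1 plate each gave 13 to 30 higher and 15 to 29 lower. No paired analysis was possible for the droplet ages because each was 1 library. The slope with age called 13 and 31 genes with DESeq2 1.42.0, 6 and 47 with no filter, and 0 to 0 with 1 plate left out.

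The values of genes past 2-fold that turned direction were Egr2 0.28 and Col2a1 1.26 with Ibsp not used, Top2a 0.02939 without cycling cells, Gdf5 -0.08479, Gdf10 -0.56 and Mstn 0.78 in the 6 to 15 Tnmd class, and Cxcl10 1.30 (on at most 1 UMI at P18) and Gdf5 -0.32 in the class of 16 or more. On the plates Col11a2 was 0.04245 and Col2a1 0.00873 where the other wells lacked Matn1 and Ibsp.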
